A study of Mus musculus with 5 samples.

Results

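The sites described here are the regions of the mouse genome that were called as NEUROD2 peaks with 1 antibody, antibody 3, and with neither of the other antibodies. Merging every group of peaks with at least 1 bp in common, across all 3 antibodies, left 12637 sites, of which 456 held a peak of antibody 3 and no peak of antibody 1 or antibody 2. The members were therefore selected on the peak calls themselves. Their antibody 3 scores and their distances to peaks of the other antibodies are given as a description, whereas location and sequence were not used to select them. Each of the 456 sites held 1 antibody 3 peak, and together they made up 14.4% of the 3164 peaks in the antibody 3 list.

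ChIP-Seq recovers DNA fragments that are crosslinked to a protein, using an antibody against that protein, and sequences them. Cerebral cortex came from untreated wild-type BALB/c pups at postnatal day 0 (P0), and according to the methods the cortices of 5 littermates of either sex were pooled. Antibody 1 was ab168932, antibody 2 was ab104430 and antibody 3 was ab109406, with 1 library each, so no difference between antibodies has a replicate check. A library made with an antibody against GFP, which is absent from this tissue, was the control against which the authors called peaks, and the input DNA library does not enter here. Each peak carries a score of minus 10 times the log10 of its MACS p-value, the number of reads behind it is unknown, and the lists hold no expression values against which the tissue could be checked.

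NEUROD2 is a basic helix-loop-helix (bHLH) transcription factor of postmitotic excitatory neurons. It pairs with widely expressed E-proteins and binds E-boxes, hexamers of the form CANNTG, with CAGATG and CAGCTG being those usually bound by NEUROD factors. A peak carries no label for the protein that was actually recovered, so the sequence under the peak and its overlap with other antibodies are the main descriptions that a peak list allows. In what follows, E-boxes were counted in a central window of 200 bp and, as flanks, in windows of the same size that lay 2000 bp beyond both edges of the site. A site is said to hold an E-box when its central window does. The members had a median length of 140 bp, so for most of them this window includes sequence beyond the called peak. Sites of all 3 antibodies had a median length of 529 bp, and most of them contain the whole window.

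Sequences of 8 members are shown, picked for single traits and not as typical members, all read from the plus strand of GRCm38 (mm10). Of all members, 72.8% had a score under 60, and 26.1% held no E-box, 32.9% held 1 and 21.7% held 2. The windows of Grin2a (chr16:9753286-9753485), Plcl1 (chr1:55524113-55524312), the region near Mcfd2 (chr17:87272766-87272965) and the region near 4930520P13Rik (chr13:70208996-70209195) held E-boxes, which are in capitals. CAGATG appears as CATCTG where it lies on the minus strand. The window at the Clock promoter (chr5:76305002-76305201) held none. The windows in the immunoglobulin genes Ighg3 (chr12:113360069-113360268) and Ighv1-62 (chr12:115372246-115372445) came from the highest scoring nuclear members, and their E-boxes are also in capitals. For the pseudogene Gm13340 (chr2:22589382-22589452) the whole site is given, and the capital marks the base that differed from the mitochondrial genome.
Grin2a: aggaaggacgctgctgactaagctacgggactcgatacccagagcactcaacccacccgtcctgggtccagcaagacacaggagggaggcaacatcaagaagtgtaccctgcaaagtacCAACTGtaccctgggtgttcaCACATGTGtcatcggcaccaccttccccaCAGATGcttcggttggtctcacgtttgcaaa
Plcl1: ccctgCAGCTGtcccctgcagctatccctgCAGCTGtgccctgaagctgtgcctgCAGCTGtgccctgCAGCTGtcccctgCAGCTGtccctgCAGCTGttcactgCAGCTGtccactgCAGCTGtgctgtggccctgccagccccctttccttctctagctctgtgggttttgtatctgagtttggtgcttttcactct
Mcfd2: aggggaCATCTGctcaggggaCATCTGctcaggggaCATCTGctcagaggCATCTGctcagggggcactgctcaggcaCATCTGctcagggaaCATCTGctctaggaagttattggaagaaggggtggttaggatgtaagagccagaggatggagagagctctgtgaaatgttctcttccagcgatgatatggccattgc
4930520P13Rik: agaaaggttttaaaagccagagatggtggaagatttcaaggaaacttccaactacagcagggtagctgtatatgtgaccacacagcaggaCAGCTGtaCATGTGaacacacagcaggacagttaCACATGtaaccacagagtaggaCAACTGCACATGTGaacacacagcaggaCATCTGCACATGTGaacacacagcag
Clock: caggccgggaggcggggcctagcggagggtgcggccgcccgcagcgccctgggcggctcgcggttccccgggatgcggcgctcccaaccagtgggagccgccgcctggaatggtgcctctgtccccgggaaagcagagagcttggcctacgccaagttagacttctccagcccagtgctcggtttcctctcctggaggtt
Ighg3: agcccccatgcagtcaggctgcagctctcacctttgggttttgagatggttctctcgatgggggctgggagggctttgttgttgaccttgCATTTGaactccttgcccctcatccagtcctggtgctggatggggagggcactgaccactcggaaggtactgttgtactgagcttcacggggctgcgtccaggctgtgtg
Ighv1-62: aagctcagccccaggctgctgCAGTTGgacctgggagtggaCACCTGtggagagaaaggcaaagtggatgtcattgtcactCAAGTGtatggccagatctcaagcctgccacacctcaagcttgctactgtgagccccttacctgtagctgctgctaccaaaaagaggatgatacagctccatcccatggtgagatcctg
Gm13340: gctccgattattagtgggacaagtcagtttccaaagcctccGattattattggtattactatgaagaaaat

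Most antibody 3 only sites were short and lay just above the lowest score in the lists. The median score was 54.6, the quartiles were 52.6 and 61.0, and the extremes were 50.11 and 365. In 332 sites (72.8%) the score was under 60, and 435 of the sites scored below the median of all antibody 3 peaks. By comparison, the antibody 3 score was under 60 in 15.2% of the 2088 sites of all 3 antibodies, which had a median of 100.1, and in 44.8% of the 487 sites of antibodies 2 and 3 only, which had a median of 62.1. The median length of the antibody 3 only sites was 140 bp, against 529 bp for sites of all 3 antibodies, whose merged limits come from several peaks. Short, low-scoring sites were also found with antibody 1 alone, where the medians were 152 bp and an antibody 1 score of 57.1.

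The share of antibody 3 peaks that no other antibody shared fell with the score of the peak. Among antibody 3 peaks with a score under 60, 35.3% were antibody 3 only. This share was 16.8% for scores from 60 to 75, 3.38% from 75 to 100, and 0.548% for scores of at least 100. The best placed member ranked 125th among the 3164 peaks of antibody 3. These values describe the selection and were not tested.

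**Figure D1:**
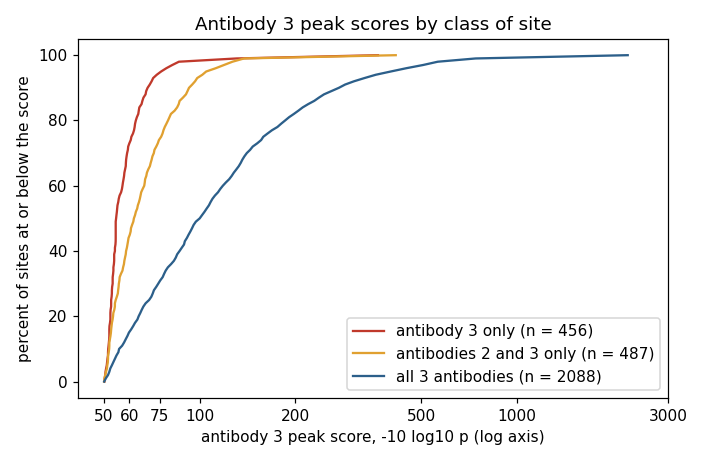
Cumulative percent of sites (y axis) at or below each antibody 3 peak score (x axis, log scale) for the 456 antibody 3 only sites, the 487 sites of antibodies 2 and 3 only and the 2088 sites of all 3 antibodies. The antibody 3 only curve rises most steeply, with 72.8% of its sites under a score of 60.

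The 6 members with a score of at least 100 belonged to 3 kinds of sequence, namely the mitochondrial genome, a nuclear copy of it and immunoglobulin heavy chain genes. Mitochondrial DNA is a separate circular genome outside the nucleus that encodes rRNAs, tRNAs and subunits of the respiratory chain. The strongest member, with a score of 365, covered 2956 bp (chrM:1764-4719) with mt-Nd1, 4 tRNA genes and parts of mt-Rnr2 and mt-Nd2. Another mitochondrial member (chrM:6-1711, score 177) covered the rRNA gene mt-Rnr1 and 618 bp of mt-Rnr2, the other rRNA gene, and the third (chrM:11003-11552, score 161) overlapped mt-Nd4 by 542 bp and mt-Th by 7 bp. They were the longest members, at 2956, 1706 and 550 bp.

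Antibody 2 also had a peak on the mitochondrial genome. Another mitochondrial region (chrM:11595-12790, overlapping mt-Nd5 by 1049 bp) had an antibody 3 score of 416 and held this antibody 2 peak, with a score of 73.1. It began 42 bp after the end of the member over mt-Nd4, so that the separation of these regions rests on a short gap. All 4 regions together covered 6408 of 16299 bp (39.3%) of the mitochondrial genome. Antibody 1 had no peak there.

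Among the 453 nuclear members, 2 matched the mitochondrial genome over their whole length with at least 80% ungapped identity, and the median best identity of all nuclear members was 40.2%. The member in Gm13340, an unprocessed pseudogene that lies inside Myo3a, had a score of 106 and spanned 71 bp. Of these, 70 bases were identical to mt-Co1 sequence (chrM:5523-5593, minus strand), which encodes a subunit of cytochrome c oxidase. The member at Gm11408 and Gm11410 (chr4:80003415-80003488, score 64.3) matched mt-Nd6 sequence at 72 of 74 bases. Neither matching stretch of the mitochondrial genome lay in a merged site, and neither member held an E-box of the CAGATG or CAGCTG form.

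Immunoglobulin heavy chain genes are rearranged and expressed in B lymphocytes. The member in Ighg3 (chr12:113360063-113360274, score 199), the constant region gene of the IgG3 heavy chain, overlapped by 175 of its 212 bp the third exon of both annotated transcripts, which have 4 and 6 exons. The member at Ighv1-62 (chr12:115372285-115372406, score 192), a variable segment annotated as a pseudogene, lay 87 bp from the annotated start. No peak of another antibody lay within 200 kb of either: the closest antibody 2 peaks were 218919 bp and 908709 bp away. Across the whole heavy chain locus, which holds 217 annotated genes (chr12:113254830-116010093), there were 5 merged sites, and 4 were antibody 3 only. In the genome, 456 of 12637 merged sites were antibody 3 only. The locus was looked at because of the scores of Ighg3 and Ighv1-62, and these are among the 4, so the count is a description only. The other members there were intergenic, with scores of 51.5 and 53.2.

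**Figure D2:**
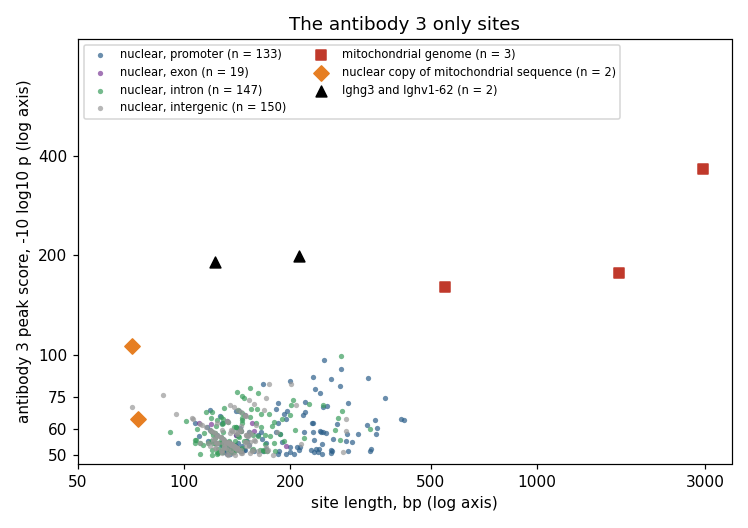
Antibody 3 peak score (y axis, log scale) against length in bp (x axis, log scale) for each of the 456 antibody 3 only sites, with nuclear sites coloured by location and the mitochondrial, mitochondrial-copy and immunoglobulin sites marked. The 3 mitochondrial sites are the longest, and no nuclear site outside the marked kinds exceeds a score of 99.2.

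Of the 18 members with scores from 75 to 100, 10 were promoter sites, 5 lay in introns and 3 were intergenic. The GC content of these promoter sites ranged from 48.1% to 75.6%. The highest of the 18 was an intron of Ggact (chr14:122902999-122903276, score 99.2), whose product is an enzyme that acts on gamma-glutamylamines. It was followed by the promoters of Srpk1 (score 96.7), a kinase of splicing factors, Clock (score 91.0), a bHLH-PAS factor of the circadian clock, and Sept10 with Sowahc (score 86.2). Next came the promoters of Mmadhc (score 85.2), needed for cobalamin processing, and Tmem19 (score 84.8). In these 5 promoter sites the GC content lay between 70.3% and 73.8%. Their central windows held no CAGATG, and the site at Sept10 held the one CAGCTG among them. The Clock member lay 24 bp from an antibody 2 peak, and the other 4 lay between 21752 and 116941 bp from one.

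Promoter sites were those with a midpoint no more than 1000 bp from a transcription start site (TSS), and 139 members were of this kind (30.5%, 95% Wilson interval 26.4 to 34.9), the 3 mitochondrial members included. Of all merged sites, 38.6% were promoter sites. A further 20 members were exonic, 147 intronic and 150 intergenic. The median distance to the closest TSS was 7621.5 bp, and 52 members lay within 100 bp of a TSS.

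The promoter share of the antibody 3 only sites did not differ detectably from the 30.9% of sites of all 3 antibodies (difference of -0.41 percentage points, 95% Newcombe interval -4.93 to 4.38). It was 23.5 points below that of sites of antibodies 2 and 3 only, with 30.5% against 54.0% (interval -29.5 to -17.3), and 16.1 points above the 14.4% of antibody 1 only sites (interval 11.4 to 20.9). The comparison changed with the antibodies that decided membership, when both classes were formed from the remaining antibodies only. Without antibody 2, sites of antibody 3 lacking antibody 1 were more often promoter sites than sites of antibodies 1 and 3, by 12.3 points (interval 8.62 to 15.9). Without antibody 1, the difference of sites of antibody 3 lacking antibody 2 from sites of antibodies 2 and 3 was -5.15 points (interval -9.48 to -0.56). These and all later intervals reflect the number of sites counted, and none of them includes the spread between libraries or mice. In all, 24 differences of shares were computed, without adjustment, and 17 of their intervals excluded 0.

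**Figure D3:**
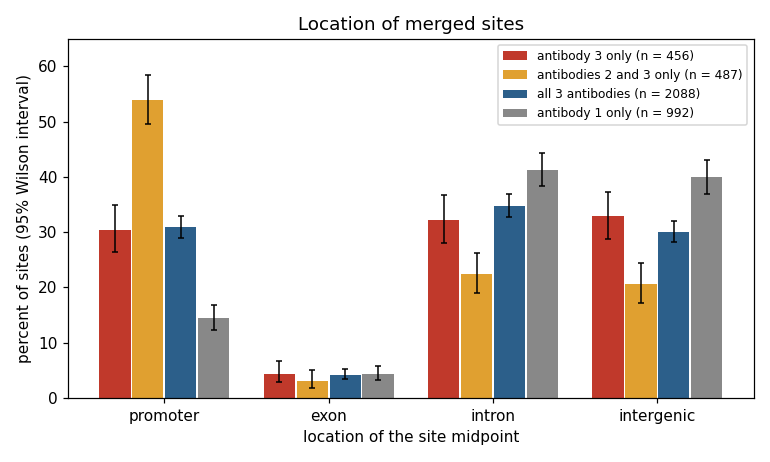
Percent of sites (y axis, bars from 0) whose midpoint lay in a promoter, exon, intron or intergenic sequence (x axis), for 4 classes of merged sites, with 95% Wilson intervals as error bars. Promoters made up 30.5% of antibody 3 only sites and 54.0% of sites of antibodies 2 and 3 only.

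Promoter members were GC-rich, with a median GC content of 64.8% and a CpG observed over expected ratio of 0.70, near the 63.8% and 0.72 of promoter sites of all 3 antibodies. Members outside promoters had a median GC content of 50.9%, against 50.9% in the like sites of all 3 antibodies. Over all members the GC content of the site (median 53.0%) was above that of the flanks (median 43.9%).

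E-boxes were less frequent in antibody 3 only sites than in sites of all 3 antibodies. At least 1 E-box lay in the central window of 337 members (73.9%), compared with 89.3% of the shared sites (difference of -15.4 points, interval -19.8 to -11.3) and 83.1% of all merged sites. In their own flanks, 67.7% of the windows held one. No E-box was found in 119 members (26.1%), while 150 held 1, 99 held 2, 47 held 3 and 41 held 4 or more. Of the shared sites, 10.7% held none and 20.4% held 4 or more.

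The difference was larger for the forms usually bound by NEUROD factors. CAGATG or CAGCTG was present in the central window of 187 members (41.0%, interval 36.6 to 45.6), against 76.8% of the sites of all 3 antibodies (difference of -35.8 points, interval -40.6 to -30.9). With a central window of 100 bp, shorter than the lower quartile of member lengths (132 bp), the difference was -30.4 points (interval -34.8 to -25.7). The share was 64.2% over all merged sites, 65.3% in sites of antibodies 2 and 3 only and 58.8% in sites of antibody 1 only, and the antibody 3 only sites were lower than both of the latter classes (by -24.3 points, interval -30.3 to -18.0, and by -17.8 points, interval -23.2 to -12.3). In the flanks of the members, 21.9% of the windows held one of these forms (interval 19.3 to 24.7), so the members stood above their flanks and below the 3 classes with which they were compared. When members were compared with sites of all 3 antibodies that also had an antibody 3 score under 60, the difference was -35.7 points (interval -42.4 to -28.4). This restriction was chosen after seeing the data.

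Counted as density, the central windows of the members held 1.49 ± 1.41 E-boxes (SD, n = 456 sites) and their flanks 1.16 ± 0.79, a ratio of 1.28. The mean paired difference was 0.33 E-boxes per window (standard error 0.075, 95% interval 0.18 to 0.48). In sites of all 3 antibodies the corresponding difference was 1.29, and it was 0.96 lower in the members (interval of the difference -1.14 to -0.79). Sites of antibodies 2 and 3 only had a difference of 0.66 and also exceeded the members (by 0.33, interval of the members minus these sites -0.54 to -0.13).

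The E-box surplus of the members lay outside promoters. In the 317 members that were not promoter sites the central window held 0.47 more E-boxes than the flanks (interval 0.28 to 0.65), and in introns 0.73 more (interval 0.47 to 0.99), with means of 1.95 and 1.22. In the 139 promoter members the means were 1.05 and 1.03 and the difference was 0.02 (interval -0.20 to 0.25). The surplus outside promoters was larger than that in promoters by 0.44 (interval 0.15 to 0.74). Promoter sites of antibodies 2 and 3 only had a difference of 0.08 (interval -0.07 to 0.23) and those of antibody 2 only one of -0.0013 (interval -0.048 to 0.046), while in those of all 3 antibodies it was 0.49 (interval 0.36 to 0.63). The members' promoters were not distinguished from those of antibodies 2 and 3 only (-0.06, interval -0.33 to 0.21). In intergenic members the difference was 0.23 (interval -0.04 to 0.51) and in the 20 exonic members 0.28 (interval -0.35 to 0.90).

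The observed share of members with NEUROD forms was likewise highest in introns and lowest in promoters, and differences between locations were not tested. The forms lay in 77 of 147 intronic members (52.4%, interval 44.4 to 60.3) and 61 of 150 intergenic members (40.7%, interval 33.1 to 48.7). They lay in 7 of 20 exonic members (35.0%, interval 18.1 to 56.7) and 42 of 139 promoter members (30.2%, interval 23.2 to 38.3). At each of these locations the flanks held them in 19.6% to 25.0% of the windows. In sites of all 3 antibodies they lay in 82.5% of intronic, 84.4% of intergenic, 83.0% of exonic and 62.2% of promoter sites.

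**Figure D4:**
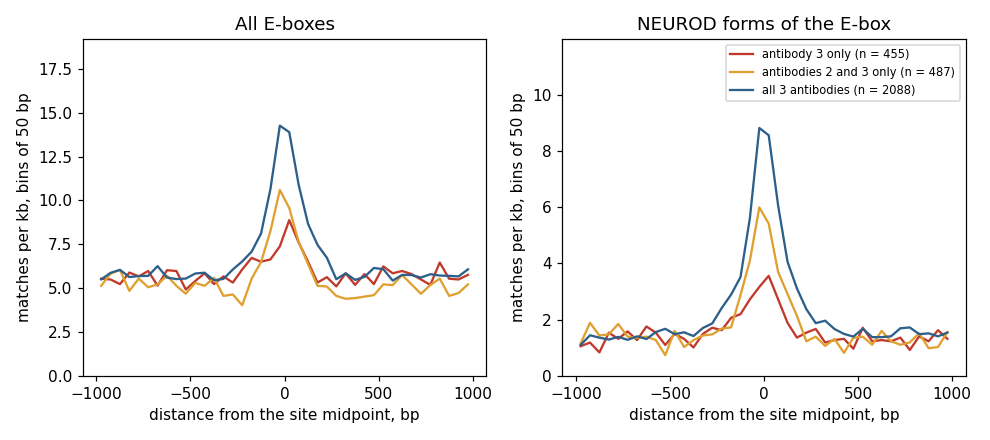
Mean density of E-boxes of any form (left) and of the forms CAGATG and CAGCTG (right), in matches per kb in bins of 50 bp (y axis), against the distance from the site midpoint in bp (x axis), for 3 classes of sites. The antibody 3 only curve has a central maximum of 8.88 E-boxes per kb, against 14.3 in sites of all 3 antibodies.

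**Figure D5:**
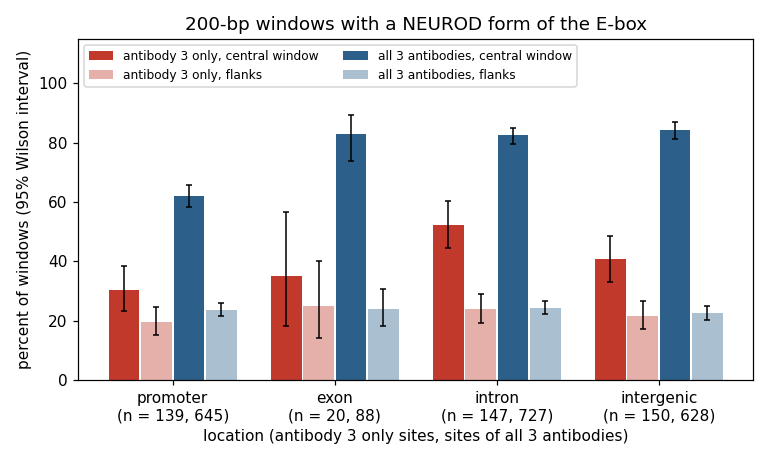
Percent of 200-bp windows with CAGATG or CAGCTG (y axis, bars from 0, 95% Wilson intervals) in the centre and in the flanks of antibody 3 only sites and of sites of all 3 antibodies, by location (x axis). The antibody 3 only centres range from 30.2% in promoters to 52.4% in introns.

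By single form, CAGATG lay in 25.7% of the members (flanks 16.5%, all merged sites 43.3%) and CAGCTG in 21.5% (flanks 6.81%, all merged sites 34.4%). Among hexamers counted on both strands in centres and flanks, CAGCTG was 3.74 times and CAGATG 1.83 times as frequent in the members' centres as in their flanks. In sites of all 3 antibodies these ratios were 5.85 and 4.69. The hexamers with the highest ratios in both classes were CG-rich, led by CGCGGC in the members. CACGTG, the form bound by MYC and CLOCK, lay in 4.82% of the members (interval 3.21 to 7.20), 2.09% of their flanks (interval 1.34 to 3.24) and 4.60% of all merged sites.

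Motifs of general promoter factors were searched on both strands as exact letters, and they may overlap one another. The GC box of SP factors, GGGCGG, lay in 59 of 139 promoter members (42.4%) and in 7 of 317 other members (2.21%). Among sites of all 3 antibodies it lay in 44.5% of promoter sites and 7.97% of the others (interval 6.68 to 9.48, against 1.07 to 4.49 in the members outside promoters). Over all locations it lay in 66 of 456 members (14.5%, interval 11.5 to 18.0), 19.3% of sites of all 3 antibodies and 21.6% of all merged sites. The ETS motif CCGGAAG lay in 7.91% of promoter members (interval 4.48 to 13.6) and 5.58% of promoter sites of all 3 antibodies (interval 4.06 to 7.63). Over all locations it lay in 3.07% of the members and 3.32% of all merged sites. The AP-1 motif TGANTCA lay in 5.04% of the members, 6.48% of their flanks and 4.34% of all merged sites, and CCAAT in 22.1% of the members, 27.6% of their flanks and 18.9% of all merged sites.

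The core motif of CTCF, a zinc finger protein that organises chromatin loops, was searched with at most 1 mismatch. In the whole site it lay in 12 members (2.63%) and in 15.6% of the sites of all 3 antibodies (difference of -12.98 points, interval -14.95 to -10.56), but there the difference in length enters the value. In the central window, an alternative chosen after seeing the data, it lay in 13 members (2.85%), against 8.67% of sites of all 3 antibodies (difference of -5.82 points, interval -7.56 to -3.55) and 7.75% of all merged sites. In antibody 1 only sites the share was 4.34%, and the interval of the difference included 0 (-1.49 points, -3.36 to 0.76). The flanks of the members held it in 1.98% of the windows.

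E-box content showed no steady change with the score of the members. CAGATG or CAGCTG was present in 56.4% of the 78 members with scores from 50 to 52, in 34.1% of the 164 from 52 to 55, in 42.2% of the 90 from 55 to 60, in 40.0% of the 100 from 60 to 75 and in 37.5% of the 24 above. In the last group 15 of 24 members were promoter sites (62.5%, interval 42.7 to 78.8), compared with 23.8% to 38.5% in the others. Those 15 included the 3 mitochondrial members and 1 nuclear copy, and without these 4 sites 11 of 20 were promoter sites.

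Several of the members with most E-boxes lay at arrays of closely spaced copies. All counts here are for the central window of 200 bp, which runs past the ends of most of these sites. The site near 4930520P13Rik (chr13:70209049-70209143, score 66.6) held 9 E-boxes in its central window, 6 of them CACATG, spaced by a median of 7 bp. In an intron of Plcl1, which encodes a phospholipase C-like protein, all 8 E-boxes were CAGCTG (chr1:55524147-55524278, score 54.4), with a median spacing of 13 bp. An intron of Gm20388 (chr8:121049546-121049717, score 51.5) held 7, of which 5 were CAGATG and the median spacing 20 bp. Near Mcfd2, a gene for a cargo receptor of the secretory pathway, all 6 were CAGATG (chr17:87272792-87272940, score 66.0), 15 bp apart in the median. The window near Gm24559 on chromosome 18 (score 70.9) held 6, of which 5 were CACCTG. The window around the 71-bp site near Gm4310 (chr10:100370111-100370181, score 69.95) held 6. Their median spacing was 24 bp and their largest 75 bp, so not all of them lay inside that site. Of the 14 members with at least 5 E-boxes, 3 had central windows that were at least 60% identical to themselves at some shift from 7 to 60 bp. Of the shared sites with at least 5 E-boxes, 50 of 188 did.

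Annotated repeats covered at least 50% of the bases in 18 members (3.95%), against 1.48% of sites of all 3 antibodies (difference of 2.46 points, interval 0.90 to 4.71) and 1.78% of all merged sites. In antibody 1 only sites the share was 5.85%, and the difference from the members was -1.91 points (interval -4.08 to 0.65). The highest scoring members of this kind were an intergenic region of the Y chromosome near Gm29197 (score 76.0) and one near Nol4 on chromosome 18 (score 69.8), both at least 96.4% repeat and without an E-box. They were followed by the promoters of the 5S rRNA-like gene n-R5s68 (score 68.4) and of Thyn1 (score 67.6), and by Mccc1os (score 62.6), an antisense transcript, whose exon site lay wholly in repeats. With a minimum of 90% repeat, the difference from sites of all 3 antibodies was 0.32 points. When membership was decided without antibody 2, sites of antibody 3 lacking antibody 1 differed from sites of antibodies 1 and 3 by 0.35 points (interval -0.67 to 1.58). Both intervals included 0.

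Sequences that occur more than once in the genome were also counted. A stretch of 50 bp with another exact copy in the genome lay in 6 members (1.32%), against 9.67% of the sites of all 3 antibodies (difference of -8.36 points, interval -9.88 to -6.42) and 3.85% of all merged sites. Longer sites hold more such stretches. In the central 200 bp, an alternative chosen after seeing the data, the shares were 4.39% and 5.99%, and the interval of the difference included 0 (-3.48 to 0.88). In that window the share was 7.87% in antibody 1 only sites (interval 6.35 to 9.71), 3.02% in sites of antibodies 1 and 2 only (interval 2.36 to 3.87), 2.67% in those of antibodies 2 and 3 only (interval 1.57 to 4.51) and 2.38% in antibody 2 only sites (interval 2.04 to 2.78), so that the 4.39% of the members (interval 2.86 to 6.68) lay among them.

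The 456 sites lay in, or within 1000 bp of a TSS of, 363 genes, which is 0.656% of the annotated gene symbols. No gene was assigned to 150 sites. A site of all 3 antibodies was also assigned to 52 of these genes (14.3% of the 363, and 3.58% of the 1454 genes with such a site), and any other merged site to 168 (46.3%). Of all annotated gene symbols, 2.63% had a site of all 3 antibodies and 13.2% any merged site other than antibody 3 only. The remaining 195 genes had no site of another class.

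Members also lay in genes of 5 lists for neuronal functions, whose genes are long. Among 32 transcription factor genes of cortical layers and projection neurons, 3 had an antibody 3 only site. These were introns of Cux2 (score 67.7), a factor of upper-layer neurons, and Mef2c (score 57.9), and the promoter of Nr2f2 (score 53.7), an orphan nuclear receptor. The Cux2 member lay 22 bp from an antibody 1 peak and 42 bp from an antibody 2 peak, and the Mef2c member 42 bp from an antibody 2 peak. Their central windows held no CAGATG or CAGCTG. The Nr2f2 member was 1143205 bp from the closest peak of another antibody.

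Axon guidance genes had 4 of 71 with a member, all intronic: Sema6d (score 60.7), encoding a membrane-bound semaphorin, Ntn1 (score 54.9), encoding netrin-1, Unc5d (score 52.6), a netrin receptor gene, and Plxna4 (score 50.5), encoding a semaphorin receptor. Unc5d held 5 E-boxes, 1 of them CAGATG. Among 149 genes of cell adhesion and synapse organisers, 7 had a member. The highest was in an intron of Pcdh9 (score 75.5), a protocadherin gene, followed by Ctnnd2 (score 60.7), Ncam2 (score 58.2), Nfasc (score 55.6) and Nlgn1 (score 54.7). The intron of Nfasc, which encodes neurofascin of the axon initial segment, held 5 E-boxes.

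Among 75 glutamate and GABA receptor genes, 3 had a member. The intron of Grin2a (chr16:9753309-9753462, score 79.5), a subunit gene of the NMDA receptor, held 4 E-boxes in its central window, 1 of them CAGATG, as printed above. It lay 43947 bp from the closest TSS and 17708 bp from the closest antibody 2 peak. An intron of Grm5 (score 66.4), encoding a metabotropic glutamate receptor, held 2 E-boxes, and an exon site in Gria2 (score 62.1), an AMPA receptor subunit gene, held 1. Of 135 voltage-gated channel genes, 3 had a member: Kcnq1 (score 56.9), Cacna1i (score 51.1, promoter) and Kcnh1 (score 50.7).

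These shares, from 2.22% for channel genes to 9.38% for cortical factor genes, stood above the 1.31% of all 21924 protein-coding genes, and the median gene in these lists was 41753 to 122424 bp long, against 17403 bp. In each of these lists the share with a site of all 3 antibodies was larger, from 12.6% to 25.0%, against 5.40% of all protein-coding genes. None of the 32 neuronal bHLH and partner genes had an antibody 3 only site, while 5 had a site of all 3 antibodies. Of the genes with a member, a site of another class was also found for 2 of 3 cortical factor genes, 3 of 4 axon guidance genes, 6 of 7 adhesion genes, 3 of 3 receptor genes and 1 of 3 channel genes, against the 46.3% of all genes with a member. The part of gene length in these shares was not tested.

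Histone, ribosomal protein, chemoreceptor, small RNA and zinc finger genes, families with many similar copies, were counted in the same way, and most of them are short. The median gene was 107 bp long for small RNA genes, 496 bp for ribosomal protein genes, 586 bp for histone genes, 5532 bp for chemoreceptor genes and 16445 bp for zinc finger genes, against the 17403 bp of protein-coding genes. The part of length was not tested here either, and small RNA genes are not protein-coding. Their shares are read against the 0.656% of all gene symbols and 1.31% of protein-coding genes with a member. No member was assigned to any of 91 histone genes. Of 365 ribosomal protein genes 1 had a member (0.27%), Rps14, at an intron (score 59.5). Among 1984 olfactory and vomeronasal receptor genes, Olfr418 (score 52.1, promoter) was the only one (0.050%). Small RNA genes were represented by 17 of 6070 (0.28%), of which 11 were mitochondrial tRNA and rRNA genes, some of them only within 1000 bp of a member. Of the nuclear ones, the promoter of Gm22727 scored 67.9. Zinc finger genes had 7 of 448 (1.56%), among them Zfp189 (score 83.4, promoter shared with Mrpl50), Zfp65 (score 67.8, promoter), Zfp536 (score 66.0, intron), Zfp618 (score 63.6, intron) and Zfp738 (score 54.4, promoter). The share of genes with a site of all 3 antibodies was 4.40% for histone, 0.55% for ribosomal protein, 0.33% for small RNA and 4.24% for zinc finger genes, and no chemoreceptor gene had one.

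Most members were far from any other peak. The median distance to the closest peak of antibody 1 or 2 was 53779.5 bp. Within 1000 bp of such a peak lay 36 members (7.89%, interval 5.76 to 10.7), and within 100 bp 14 (3.07%). Just outside the limit for a merged site were the intron of Msra (score 50.2), a methionine sulfoxide reductase gene, 9 bp from an antibody 2 peak, the promoter of Foxp4 (score 51.7), a forkhead factor gene, 17 bp from one, and an intergenic site near Gm23163 (score 58.6), 21 bp from an antibody 1 peak. On the other side of the limit, the antibody 3 sites with the smallest overlap with another antibody shared 10, 18 and 24 bp with it, at scores of 57.6, 70.1 and 51.9. Only 9 members had another member within 10000 bp.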

How the data were processed

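NEUROD2 ChIP-Seq was measured in pooled P0 cortex with 3 antibodies, 1 library each. The authors mapped reads to mm10 with Bowtie, called peaks for each antibody with MACS against the GFP library, and deposited peak lists whose score is the MACS p-value as -10 log10. The deposited table of shared sites was used for its positions only. Read depth is unknown from these files. Scores were ranked and summarised and not scaled between antibodies.

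Peaks sharing at least 1 bp were merged. Sites were assigned by midpoint with GENCODE M21 on GRCm38.p6, of which the sequence and repeat annotation were used. Exact copies of 50-bp stretches were sought genome-wide on both strands. Shares carry 95% Wilson intervals, differences Newcombe intervals, and paired E-box differences normal intervals over sites. With 1 library per antibody, no p-value was computed. Functions were tested on simulated data. Python 3.11.15, numpy 2.4.6, pandas 2.3.3, numba 0.67.0 and matplotlib 3.10.9 were used.

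The members, gene lists and comparisons were chosen with earlier results of these data known. Named were the 10 highest scoring sites and promoter sites, the 5 with most E-boxes, the 5 highest scoring repeat sites, up to 5 per gene list, and the 3 on either side of the merging limit. Also named, after their values were seen, were the sites at Gm11408 and near Mcfd2 and the intergenic immunoglobulin sites. The result for 1 site is not reported here. Alternatives concerned merging, score limits, antibodies deciding membership, TSSs, windows, repeats and mitochondrial sites.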

Additional observations from a re-analysis of the deposited data

How the results depend on the processing

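No analysis of paired libraries was possible because each antibody had 1 library. The paired E-box differences compared windows of the same site. Of 77 values under alternatives, 57 kept their direction and their side of the threshold, stayed within the interval of the main value, or were numbers of sites that stayed near the main number. These numbers, which have no interval, were 423 with peaks within 500 bp merged and 488 without antibody 1, against 456. With antibody 3 scores of at least 100, 6 sites were left, with a median score of 184 and 16.7% within 1000 bp of another antibody's peak. The differences from sites of all 3 antibodies were then 52.6 points for promoters, -21.8 for E-boxes, -1.44 for repeats, 22.2 for repeated 50-mers and -17.5 for the CTCF core, the E-box ratio was 2.0, and the intervals other than that of the promoters included 0. These 6 sites were 3 mitochondrial, 1 in a nuclear mitochondrial copy and 2 at immunoglobulin genes, and the mitochondrial sites and the copy were counted as promoter sites. Without antibody 2, 983 sites held an antibody 3 peak and no antibody 1 peak. Among them were the sites of antibodies 2 and 3 only, of which 54.0% were promoter and 0.62% repeat sites. The median score of the 983 was 57.9. Their difference from sites of antibodies 1 and 3 was 12.3 points for promoters and 0.35 points for repeats, and the interval for repeats included 0. Without antibody 1 the promoter difference, then from sites of antibodies 2 and 3, was -5.15. The promoter difference from sites of all 3 antibodies was 0.75 with promoters within 500 bp and 0.12 without repeat sites, and both intervals included 0. With at least 90% repeat the repeat difference was 0.32, the difference in repeated 50-mers was 0.0 when at least 50% of the 50-mers of a site had to be repeated, and -1.60 in the central 200 bp. In promoters alone the E-box ratio was 1.02. The cause of these changes was not tested. The differences in CAGATG or CAGCTG and in the CTCF core stayed below 0 under each alternative run, and their intervals excluded 0 except that of the CTCF core at scores of at least 100.

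The peak lists give no read counts, so a missing peak of antibody 1 or 2 does not show that the region was unbound, and depth, antibody and library cannot be told apart. Merged sites are not replicates of a condition.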
